A study of Mus musculus with 4 samples.

Results

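Glycolysis and pentose phosphate genes were measured in splenic Treg cells of mice with both Setd2 alleles floxed and Cre driven by Foxp3. The group held 36 genes, chosen by name for glucose transport, glycolysis, handling of lactate and pyruvate, and the pentose phosphate pathway, out of 24087 genes in the RNA-seq table. All 36 were found in the table. Treg cells, which restrain other T cells and depend on the transcription factor Foxp3, were sorted from the spleen as CD3+CD4+YFP+ cells of C57BL/6 mice at steady state. KO mice were Foxp3Cre-YFPSetd2f/f, and CTRL mice were littermates carrying 1 floxed allele, Foxp3Cre-YFPSetd2f/+. Both genotypes thus expressed Cre and YFP from the Foxp3 locus, so that CTRL cells were expected by design to have 1 working allele of Setd2, which encodes the methyltransferase responsible for H3K36me3. Each genotype had 2 libraries (CTRL 1, CTRL 2, KO 1 and KO 2), each from cells pooled from 2 mice. The labels of these samples give no age, and the study's methods give a range of ages only for its mice in general.

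Glycolysis splits glucose into pyruvate in the cytosol and yields ATP, and its pyruvate is either reduced to lactate and exported or carried into mitochondria. The pentose phosphate pathway leaves glycolysis at glucose 6-phosphate and supplies NADPH and ribose for nucleotides. In T cells, activation and proliferation are known to go with greater use of both routes, and Hif1a, the oxygen-regulated transcription factor, is known to activate many glycolytic genes. Treg cells are generally described as relying more on mitochondrial oxidation than effector T cells do.

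Values are FPKM, fragments scaled by gene length and library total, so that levels can be compared between genes. Fold changes are KO minus CTRL on the log2(FPKM + 1) scale, with the standard error (SE) of the fit. Genes were called higher or lower at adjusted p under 0.05 (limma, two-sided, Benjamini-Hochberg over the 11399 genes that reached an FPKM of 1 in 2 or more libraries). Depth was at least 30843594 reads for CTRL 1, 32731216 for CTRL 2, 33341306 for KO 1 and 33479731 for KO 2, and between 70 and 32334 reads or more stood behind each value of a member. CTRL 1 had the most genes above 0, 19100 against 15913 to 16410 in the other libraries. The targeted gene, Setd2, measured 23.4 and 25.3 FPKM in CTRL versus 21.3 and 19.5 FPKM in KO, a difference of -0.24 (SE 0.076, adjusted p = 0.0970) that did not pass. This value covers the whole transcript, and the floxed exons were not analysed separately here. Foxp3 stood between 112 and 139.8 FPKM and Cd4 between 268 and 299 FPKM in all 4 libraries, and of the CD8 markers Cd8a was under 0.33 FPKM in each, whereas Cd8b1 was at 8.33 and 11.2 FPKM in CTRL and 10.3 and 11.1 FPKM in KO.

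Of the 36 members, 7 were higher in KO Treg cells, which were Gpi1, Aldoa, Tpi1, Pgk1, Eno1, Ldha and Hif1a, and 1, Eno3, was lower. The other 28 did not pass. The 7 higher genes made up 19.4% of the members, compared with 5.10% of all genes tested that were called higher. The 1 lower gene made up 2.78%, compared with 4.65% of all genes tested that were called lower. Fold changes of the 7 ranged from 0.27 for Gpi1 to 0.45 for Tpi1 and Hif1a, corresponding to ratios of mean FPKM from 1.21 to 1.37. The median fold change was 0.25 over the 36 members and -0.02 over all genes tested. The members' summed level was 2085.2 and 2090.5 FPKM for the CTRL libraries and 2551.5 and 2519.8 FPKM for the KO libraries. The sum of both KO libraries was 1.21 times that of both CTRL libraries, and the members took 0.446% and 0.449% of all FPKM in CTRL and 0.543% and 0.533% in KO. Fewer cells of a type and less RNA per cell cannot be told apart in these bulk samples.

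Proliferation markers also lay higher in KO. All 12 had both KO libraries above both CTRL libraries, against 29.0% of all genes tested. Of the 12, 9 were called higher, against 5.10% of all genes tested, and their median fold change was 0.85. Their summed level was 222.8 and 170.8 FPKM in CTRL and 360.1 and 355.3 FPKM in KO. Mki67 had 31.8 and 24.3 FPKM in the CTRL libraries, against 45.1 and 44.7 FPKM in the KO libraries (fold change 0.67, adjusted p = 0.0433). Their part in the values of the glycolysis and pentose phosphate genes was not tested.

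Most of the remaining members had fold changes above 0 without passing, and 28 of all 36 members had one. Both KO libraries were above both CTRL libraries in 23 members, an arrangement found in 29.0% of all genes tested, and both were below in 4 members (35.5% of all genes tested). The groups overlapped in 9 members. Before adjustment, 19 members were higher at p under 0.05 and 2 were lower, compared with 16.3% and 18.4% of all genes tested. A total of 11 members had an adjusted p between 0.05 and 0.075, so the list of 8 calls had no sharp border. Leaving out CTRL 1, CTRL 2, KO 1 or KO 2 left 0 of 36 members past the threshold by limma each time, with at most 1 of all genes tested called and 17 to 21 members at unadjusted p under 0.05, although the fold changes of the 8 called members kept their sign. In each of these fits the genotype with 1 library is assumed to vary like the other, and the loss of calls held for nearly all genes, not for the members in particular. Testing all 19888 genes above 0 also left 0 members past the threshold (smallest adjusted p 0.086), a fit with no variance trend called 1 higher (Ldha) and 1 lower (Eno3), and quantile normalization lowered the members' median to 0.16 with 4 of the 8 calls kept.

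**Figure D1:**
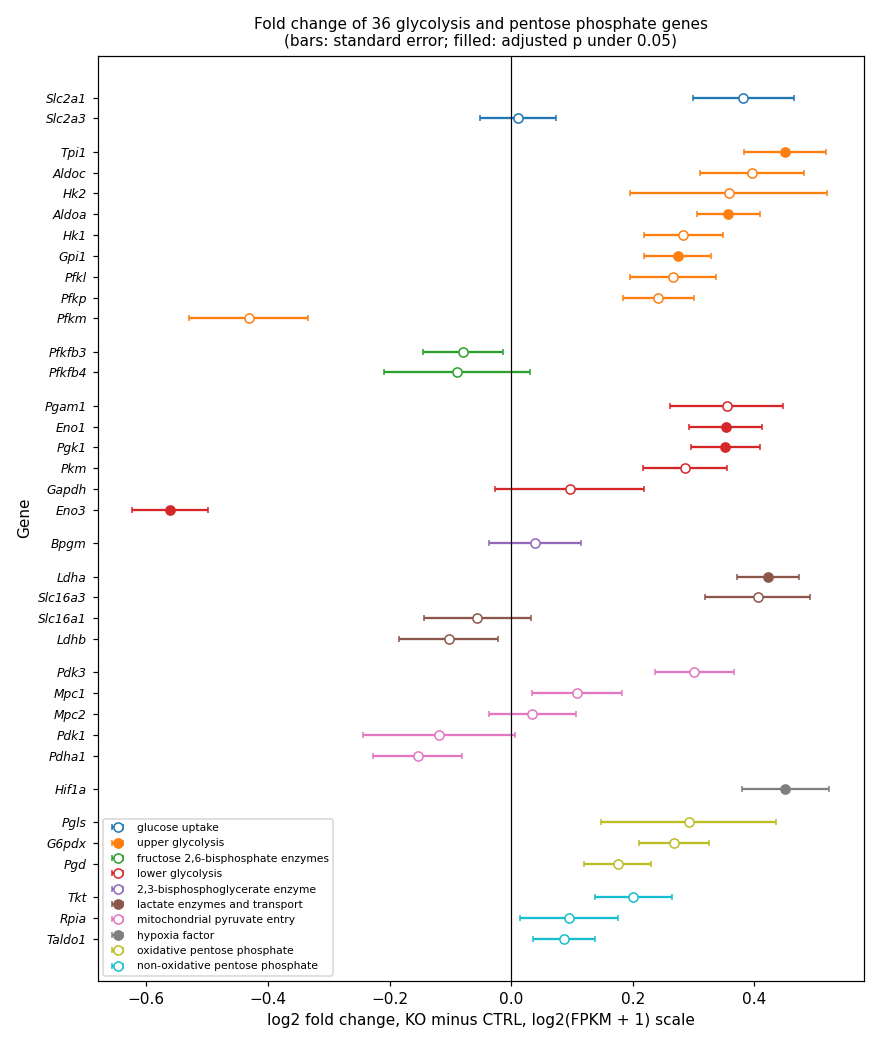
Fold change of each of the 36 members (x axis, KO minus CTRL on the log2(FPKM + 1) scale; y axis, genes grouped by role, with 1 colour for each role), where points are estimates from 2 libraries per genotype, bars are standard errors and filled points have an adjusted p under 0.05. Filled points to the right of 0 are Gpi1, Aldoa, Tpi1, Pgk1, Eno1, Ldha and Hif1a, and Eno3 at -0.56 is the only filled point to the left.

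In GENCODE vM21 on GRCm38, the called members are protein-coding genes. The annotation places Gpi1 (ENSMUSG00000036427) on chromosome 7 from 34201330 to 34230336 (-), Aldoa (ENSMUSG00000030695) on chromosome 7 from 126795234 to 126800751 (-), Tpi1 (ENSMUSG00000023456) on chromosome 6 from 124810586 to 124814296 (-), Pgk1 (ENSMUSG00000062070) on chromosome X from 106187100 to 106203699 (+). It places Eno1 (ENSMUSG00000063524) on chromosome 4 from 150236721 to 150248879 (+), Ldha (ENSMUSG00000063229) on chromosome 7 from 46841475 to 46855627 (+), Hif1a (ENSMUSG00000021109) on chromosome 12 from 73901375 to 73947530 (+) and Eno3 (ENSMUSG00000060600) on chromosome 11 from 70657202 to 70662513 (+).

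The 250 bases before the first RefSeq start (GRCm38.p6) are printed for Ldha, Pgk1, Hif1a and Eno3. They are the 4 called members among the 6 smallest adjusted p whose window overlapped no annotated exon. The Ldha and Hif1a windows lie inside the GENCODE spans of these genes given above, whereas the Pgk1 and Eno3 windows lie before the gene spans. Capitals mark ACGTG or GCGTG, the core letters of the hypoxia response element, on either strand. Ldha lies at chr7:46845554-46845803 (+), Pgk1 at chrX:106186850-106187099 (+), Hif1a at chr12:73907617-73907866 (+) and Eno3 at chr11:70656926-70657175 (+), and each is given 5′ to 3′ on its own strand.
Ldha: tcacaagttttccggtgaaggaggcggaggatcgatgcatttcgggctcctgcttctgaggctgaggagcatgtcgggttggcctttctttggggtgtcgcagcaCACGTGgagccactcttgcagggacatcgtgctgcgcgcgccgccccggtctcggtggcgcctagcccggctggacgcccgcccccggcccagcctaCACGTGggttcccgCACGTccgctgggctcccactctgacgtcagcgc
Pgk1: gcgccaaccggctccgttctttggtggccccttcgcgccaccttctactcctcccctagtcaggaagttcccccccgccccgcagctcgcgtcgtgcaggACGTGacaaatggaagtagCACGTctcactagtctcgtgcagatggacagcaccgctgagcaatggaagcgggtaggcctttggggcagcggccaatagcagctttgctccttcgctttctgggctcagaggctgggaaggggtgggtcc
Hif1a: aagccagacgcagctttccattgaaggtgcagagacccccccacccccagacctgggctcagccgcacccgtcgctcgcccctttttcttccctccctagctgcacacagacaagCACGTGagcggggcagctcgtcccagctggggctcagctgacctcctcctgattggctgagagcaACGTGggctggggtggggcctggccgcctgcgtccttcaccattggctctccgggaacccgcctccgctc
Eno3: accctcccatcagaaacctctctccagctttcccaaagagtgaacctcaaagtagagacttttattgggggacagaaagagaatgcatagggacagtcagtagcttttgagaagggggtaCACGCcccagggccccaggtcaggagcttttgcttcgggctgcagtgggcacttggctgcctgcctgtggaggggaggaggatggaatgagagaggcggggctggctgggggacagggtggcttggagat

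The Ldha window held 5 matches to the hypoxia core, 4 of which came from 2 copies of the E-box CACGTG, a palindrome that counts once per strand. The Hif1a window held 3, with 1 E-box among them, the Pgk1 window 2 and the Eno3 window 1. Thus the core letters were found before RefSeq starts of members that were higher and of the member that was lower. Over all RefSeq starts of the members, with 35 of 36 members matched and 50 windows, 40 windows (80.0%) held the core, compared with 56.2% of 11257 windows of the genes tested and 38.6% of all 32851 windows. Among windows of members called higher, 9 of 12 held it, and among windows of the other members 31 of 38. Windows of the first start of Aldoa, Tpi1 and Gpi1 held none. CACGTG was in 10.0% of the members' windows and 8.42% of those of the genes tested. GGGCGG, the GC box, was in 60.0% and 57.8%. These matches are descriptions of letters, and Slc2a3 was in no entry.

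Glucose enters T cells through facilitative transporters. Slc2a1, the transporter known to rise on T cell activation, had 16.7 and 18.3 FPKM in the CTRL libraries, against 24.2 and 21.9 FPKM in the KO libraries. Both KO libraries were higher, by 0.38 (SE 0.083), yet the adjusted p of 0.0517 did not pass. Slc2a3, the high-affinity transporter, reached 29.97 and 31.75 FPKM in KO compared with 30.1 and 31.2 FPKM in CTRL. Its libraries overlapped, with a difference of 0.01 (95% interval -0.15 to 0.17), whose sign turned under scaling to the same sum and under quantile normalization. Slc2a3 exceeded Slc2a1 by 1.80 and 1.70 times in the CTRL libraries and by 1.24 and 1.45 times in the KO libraries.

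Upper glycolysis, from hexokinase to triose phosphates, contained 9 members, of which 3 were higher, 0 lower and 6 did not pass. Over all genes tested, 5.10% were called higher and 4.65% lower. Counts by role are small, and their differences from these shares or from each other were not tested. The summed level of the 9 members was 519.8 and 528.7 FPKM in CTRL and 655.0 and 651.1 FPKM in KO. Gpi1, which converts glucose 6-phosphate to fructose 6-phosphate, measured 182.4 and 191.4 FPKM in CTRL versus 223.4 and 228.7 FPKM in KO (fold change 0.27, SE 0.055, adjusted p = 0.0466). Aldoa, the aldolase that splits fructose bisphosphate, had 192.3 and 195.2 FPKM in the CTRL libraries, against 252.3 and 244.5 FPKM in the KO libraries (fold change 0.36, SE 0.052, adjusted p = 0.0351). Tpi1, which interconverts both triose phosphates, reached 59.5 and 57.8 FPKM in KO compared with 44.7 and 40.7 FPKM in CTRL (fold change 0.45, SE 0.068, adjusted p = 0.0355). In all 3 genes each KO library lay above each CTRL library, and Gpi1 had the smallest fold change of the 8 calls in size and the adjusted p nearest the threshold.

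Hexokinases phosphorylate glucose and so hold it in the cell. Hk1 was at 42.7 and 46.6 FPKM in CTRL, against 54.5 FPKM in both KO libraries (fold change 0.28, SE 0.065, adjusted p = 0.0558). Hk2, the inducible form, was low in all libraries, at 1.96 and 1.49 FPKM in CTRL, against 2.87 and 2.13 FPKM in KO (fold change 0.36, SE 0.16, adjusted p = 0.191). Hk1 mRNA exceeded Hk2 mRNA by 19.0 to 31.4 times, and these ratios overlapped between genotypes. Aldoc, the other aldolase, measured 4.30 and 4.14 FPKM in CTRL versus 5.69 and 6.05 FPKM in KO (fold change 0.40, adjusted p = 0.0513), far below Aldoa in level.

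Phosphofructokinase, the committed step of glycolysis, is built from liver, platelet and muscle subunits, whose values lay on different sides of CTRL. Pfkp, the platelet form, had 28.9 and 27.9 FPKM in the CTRL libraries, against 33.1 and 34.4 FPKM in the KO libraries (fold change 0.24, adjusted p = 0.0621). Pfkl, the liver form, reached 19.4 and 18.1 FPKM in KO compared with 15.9 and 14.9 FPKM in CTRL (fold change 0.27, adjusted p = 0.0728). Pfkm, the muscle form, lay to the other side, at 6.60 and 6.37 FPKM in CTRL, against 4.21 and 4.91 FPKM in KO (fold change -0.43, SE 0.098, adjusted p = 0.0554). None of the 3 subunits passed here. Pfkm passed as lower with robust eBayes (adjusted p = 0.0473) and with limma-voom on recovered reads (adjusted p = 0.0331). Pfkp passed as higher with limma-voom on recovered reads (adjusted p = 0.0444) and with the exon length trend removed (adjusted p = 0.0418). Other members short of the threshold passed as often or more often. Of 15 alternatives, including a replicate block, Hk1, Pdk3 and Slc16a3 passed in 5, and Slc2a1 and G6pdx in 4. Aldoc and Pfkm passed in 3, and Pfkp, Pgam1 and Pkm in 2. The ratio of Pfkp to Pfkm was 4.38 in both CTRL libraries and 7.86 and 7.02 in the KO libraries. Exons of Pfkm overlap those of Senp1 on the other strand and of Gm26513 on the same strand. Exons of Pfkp overlap those of Pitrm1 on the other strand. The use of strand in the counting is not given in the sources used here.

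Pfkfb3 and Pfkfb4, bifunctional enzymes that set the level of the fructose bisphosphate activating phosphofructokinase, did not pass. Pfkfb3 measured 13.4 and 14.1 FPKM in CTRL versus 12.99 and 12.92 FPKM in KO, a difference of -0.08 (95% interval -0.25 to 0.09). Pfkfb4 had 2.12 and 2.199 FPKM in the CTRL libraries, against 2.17 and 1.79 FPKM in the KO libraries, with overlapping libraries and a difference of -0.09 (95% interval -0.40 to 0.22).

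**Figure D2:**
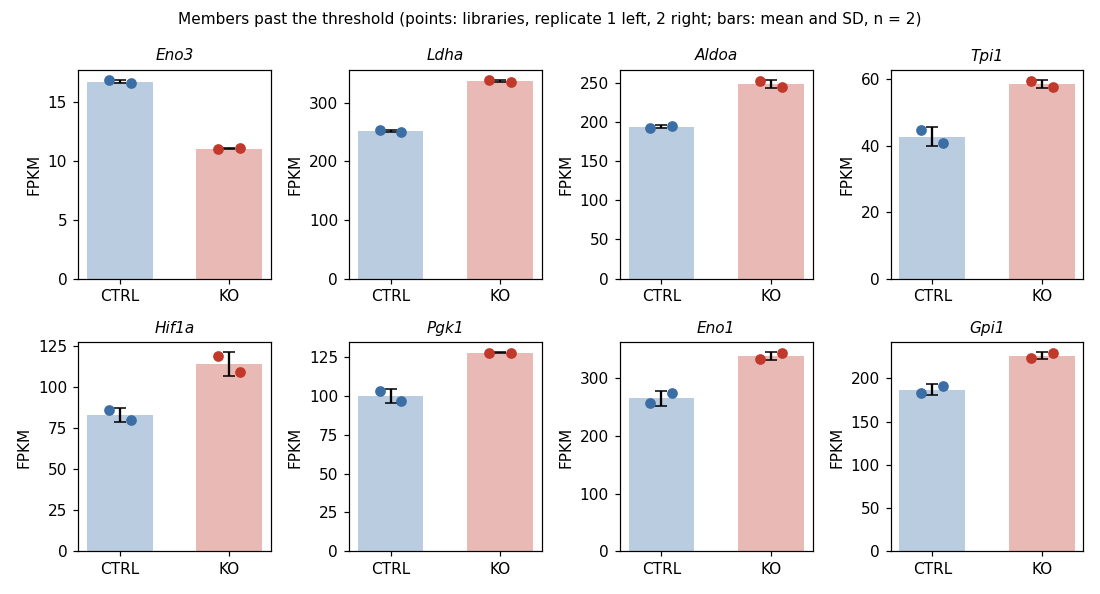
FPKM (y axis) of the 8 members called higher or lower, in order of adjusted p, in CTRL and KO (x axis), with points for the 2 libraries of each genotype and bars for their mean and SD. In each panel the points of the genotypes do not overlap, and Eno3 is lower in KO whereas the other 7 are higher.

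Lower glycolysis, from Gapdh to pyruvate kinase, contained 6 members, with 2 higher, 1 lower and 3 that did not pass. The shares over all genes tested were 5.10% higher and 4.65% lower. Pgk1, which forms the first ATP of the pathway, reached 127.5 and 127.8 FPKM in KO compared with 102.9 and 96.8 FPKM in CTRL (fold change 0.35, SE 0.056, adjusted p = 0.0378). Eno1, the ubiquitous enolase, measured 256.1 and 273.7 FPKM in CTRL versus 333.9 and 342.7 FPKM in KO (fold change 0.35, SE 0.060, adjusted p = 0.0395). Eno3, the enolase best known from muscle, had 16.9 and 16.7 FPKM in the CTRL libraries, against 11.0 and 11.1 FPKM in the KO libraries (fold change -0.56, SE 0.063, adjusted p = 0.0332). Its 2 libraries in each genotype were nearly equal, its ratio of means was 0.659, and its adjusted p was the smallest of the 36 members. Eno1 was 15.2 and 16.4 times as high as Eno3 in CTRL and 30.3 and 30.9 times in KO.

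The 3 members of lower glycolysis that did not pass were Pkm, Pgam1 and Gapdh. Pkm, the pyruvate kinase, was among the highest members, at 272.3 and 276.3 FPKM in CTRL, against 352.4 and 318.0 FPKM in KO (fold change 0.29, adjusted p = 0.0611). Pgam1, the phosphoglycerate mutase, reached 34.55 and 32.16 FPKM in KO compared with 27.96 and 23.91 FPKM in CTRL (fold change 0.35, adjusted p = 0.0704). Gapdh, often used as a reference gene, measured 64.5 and 50.6 FPKM in CTRL versus 62.9 and 59.4 FPKM in KO. Its groups overlapped, and its difference of 0.10 had a 95% interval from -0.22 to 0.41. Bpgm, the bisphosphoglycerate mutase known from red cells, had 11.2 and 10.5 FPKM in the CTRL libraries, against 11.5 and 10.8 FPKM in the KO libraries, a difference of 0.04 (95% interval -0.16 to 0.23).

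Several genes of lower glycolysis have processed copies elsewhere in the genome. Of the stretches of 100 bases in the annotated exons, 51.7% of those of Pgk1, 33.9% of Pgam1, 20.9% of Gapdh and 20.4% of Eno1 also occurred in another annotated gene, and for Gapdh 86 such genes were found. Levels of these genes are therefore uncertain, because the treatment of reads with several positions is not given in the sources used here. Pkm shared 12.3% and Gpi1 7.2%, whereas Ldha (0.6%), Tpi1 (0.4%) and Aldoa (0.0%) shared little. Exons of Aldoa overlapped Fam57b, exons of Tpi1 overlapped Spsb2 and exons of Gpi1 overlapped Gm26762, each on the other strand. Exons of Hif1a overlapped Gm49321 on the same strand and Gm15283 on the other strand. Exons of Pkm overlapped Gm49759 on the same strand. Among the 17 members with no exon overlap and under 5% of shared stretches, 1 was higher (Ldha) and 1 was lower (Eno3). Of all genes tested, 5.10% were called higher and 4.65% lower. The median fold change was 0.09 over these 17 members and 0.25 over all 36, and the other called members lay outside this subset.

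Lactate dehydrogenase and the lactate carriers contained 1 higher member of 4, where 5.10% of all genes tested were called higher. Ldha, which favours the step from pyruvate to lactate, reached 338.4 and 335.1 FPKM in KO compared with 252.4 and 249.8 FPKM in CTRL (fold change 0.42, SE 0.051, adjusted p = 0.0346). Ldhb, its counterpart that favours the reverse step, measured 28.6 and 29.1 FPKM in CTRL versus 25.0 and 28.7 FPKM in KO (fold change -0.10, 95% interval -0.31 to 0.11, adjusted p = 0.421). The ratio of Ldha to Ldhb was 8.82 and 8.60 in CTRL and 13.5 and 11.7 in KO. Slc16a3, the carrier that exports lactate, had 4.20 and 4.07 FPKM in the CTRL libraries, against 6.01 and 5.59 FPKM in the KO libraries, and with a fold change of 0.41 and an adjusted p of 0.0509 it was the nearest of all members to the threshold without passing. Slc16a1, the other lactate carrier, reached 6.89 and 6.11 FPKM in KO compared with 6.72 and 6.85 FPKM in CTRL, with a difference of -0.06 (95% interval -0.28 to 0.17) that changed sign under quantile normalization. Slc16a1 was 1.60 and 1.68 times Slc16a3 in CTRL and 1.15 and 1.09 times in KO.

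**Figure D3:**
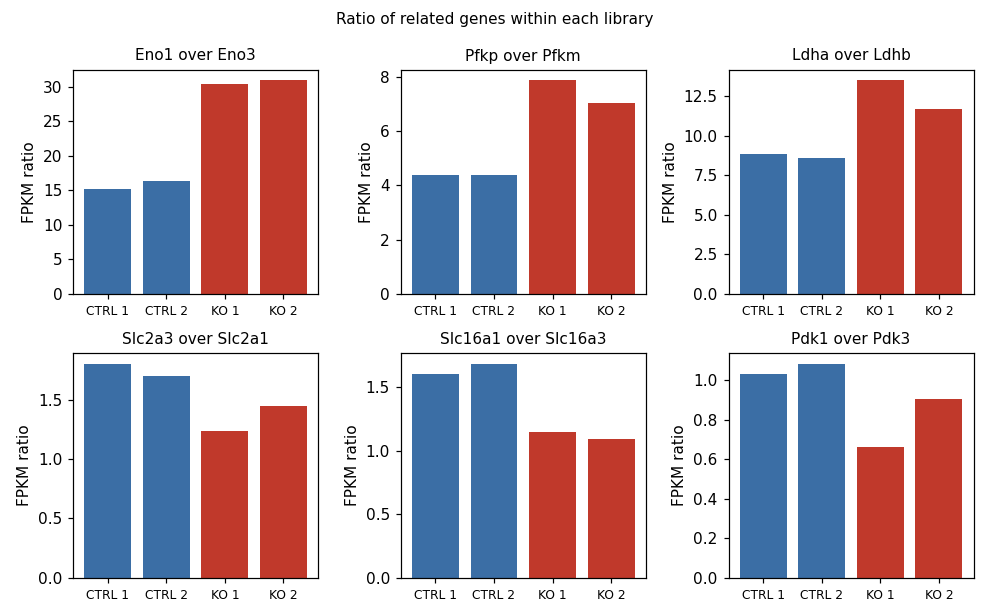
Ratio of FPKM between related members (y axis) within each of the 4 libraries (x axis, blue for CTRL and red for KO). Eno1 over Eno3, Pfkp over Pfkm and Ldha over Ldhb are higher in both KO libraries, whereas Slc2a3 over Slc2a1, Slc16a1 over Slc16a3 and Pdk1 over Pdk3 are lower. The panels show part of 10 pairs computed. Among the pairs not drawn, Hk1 over Hk2 and Pfkp over Pfkl overlapped between genotypes.

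Entry of pyruvate into mitochondria contained 5 members, and 0 of these passed in either direction by limma, against 5.10% higher and 4.65% lower of all genes tested. Before adjustment, 1 (Pdk3) was higher and 0 lower at p under 0.05, against 16.3% and 18.4% of all genes tested. The summed level of the 5 members was 112.1 and 112.5 FPKM in CTRL and 106.9 and 117.5 FPKM in KO. Mpc1 and Mpc2, which form the mitochondrial pyruvate carrier, differed by 0.11 (95% interval -0.08 to 0.30) and 0.03 (95% interval -0.15 to 0.22). Pdha1, the catalytic subunit of pyruvate dehydrogenase, measured 43.6 and 44.4 FPKM in CTRL versus 37.3 and 41.8 FPKM in KO (fold change -0.15, adjusted p = 0.208). Of the kinases that inhibit pyruvate dehydrogenase, Pdk3 was at 15.07 FPKM in both CTRL libraries and at 19.36 and 18.26 FPKM in KO (fold change 0.30, adjusted p = 0.0514). Pdk1, a known target of Hif1a, had 15.5 and 16.2 FPKM in the CTRL libraries, against 12.8 and 16.5 FPKM in the KO libraries (fold change -0.12, 95% interval -0.44 to 0.20). On the log2(FPKM + 1) scale, the KO libraries of Pdk1 differed from each other more than those of any other member.

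Hif1a itself reached 119.3 and 109.3 FPKM in KO compared with 86.5 and 80.3 FPKM in CTRL. Both KO libraries were above both CTRL libraries, with a fold change of 0.45 (SE 0.072, adjusted p = 0.0378), although the activity of the protein is set largely by its stability, which was not measured here. A list of 14 hypoxia targets outside glycolysis, of which 10 were tested, had a median fold change of 0.02. It held 0 higher and 0 lower genes by limma, against 5.10% and 4.65% of all genes tested. Before adjustment, 1 was higher and 2 were lower at p under 0.05, against 16.3% and 18.4% of all genes tested. At unadjusted p under 0.05 stood Ndrg1 (fold change 0.35, adjusted p = 0.0634), Ero1a (-0.30, adjusted p = 0.0554) and P4ha1 (-0.18, adjusted p = 0.128). Bnip3l, a target that marks mitochondria for removal, measured 50.4 and 51.2 FPKM in CTRL versus 51.7 and 48.4 FPKM in KO (fold change -0.02, adjusted p = 0.824). The targets too low to be tested were Vegfa, P4ha2, Ak4 and Car9, all under 1 FPKM. Of these, Vegfa, P4ha2 and Ak4 had both KO libraries above both CTRL libraries, and Car9 overlapped.

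In the oxidative branch of the pentose phosphate pathway, 0 of 3 members passed by limma, whereas 2 were higher and 0 lower at unadjusted p under 0.05. Of all genes tested, 5.10% were called higher and 4.65% lower, and 16.3% and 18.4% were at unadjusted p under 0.05. G6pdx, the dehydrogenase that commits glucose 6-phosphate to the pathway, had 23.6 and 23.2 FPKM in the CTRL libraries, against 28.9 and 27.9 FPKM in the KO libraries (fold change 0.27, SE 0.058, adjusted p = 0.0516). Pgd, which makes the second NADPH, reached 38.0 and 36.9 FPKM in KO compared with 32.9 and 33.2 FPKM in CTRL (fold change 0.18, adjusted p = 0.0964). Pgls, the lactonase between them, measured 2.42 and 3.37 FPKM in CTRL versus 3.72 and 3.74 FPKM in KO (fold change 0.29, adjusted p = 0.219), and 17.3% of its stretches occur in Fam129c, which overlaps it on the same strand. All 3 genes had both KO libraries above both CTRL libraries. Exons of G6pdx overlap Ikbkg on the other strand, and 7.5% of the G6pdx stretches also occur in another annotated gene.

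The non-oxidative branch, which exchanges sugars with glycolysis, likewise contained 0 called members of 3 by limma, against 5.10% higher and 4.65% lower of all genes tested. Before adjustment, 1 was higher and 0 lower at p under 0.05, against 16.3% and 18.4% of all genes tested. Tkt, the transketolase, had 78.4 and 85.2 FPKM in the CTRL libraries, against 93.6 and 94.6 FPKM in the KO libraries (fold change 0.20, adjusted p = 0.0945). Taldo1, the transaldolase, reached 92.9 and 95.3 FPKM in KO compared with 88.8 and 88.2 FPKM in CTRL, a difference of 0.09 (95% interval -0.04 to 0.22). Rpia, which makes ribose 5-phosphate, measured 34.8 and 31.95 FPKM in CTRL versus 33.9 and 37.6 FPKM in KO, with overlapping libraries (95% interval of the difference -0.11 to 0.30). The summed level of the branch in KO was 1.10 times that in CTRL, compared with 1.17 times for the oxidative branch, 1.25 for upper glycolysis, 1.23 for lower glycolysis and 1.29 for the lactate genes, and these ratios were not tested against each other.

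All 7 higher members were abundant. Among the 21 members with a CTRL mean of at least 20 FPKM, 7 were higher and 0 lower, with a median fold change of 0.27. Among the 15 members under 20 FPKM, 0 were higher and 1 was lower (Eno3), with a median of 0.11. Shares called over all genes at these levels were not computed, and the log2(FPKM + 1) scale understates changes of low genes. The 4 X-linked members, Pgk1, Pdha1, Pdk3 and G6pdx, contained 1 higher gene, where 5.10% of all genes tested were called higher. Xist and 4 Y-linked genes were above 0 in all 4 libraries, so each pool held RNA from both sexes. Differences between libraries of one genotype had a median size of 0.055 on the log2 scale over members in CTRL and 0.081 in KO, compared with 0.095 and 0.091 over all genes tested.

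Genes of the same pathways outside the 36 members were examined from a list of 72, of which 50 were tested. In this list 5 were higher (10.0%, against 5.10% of all genes tested) and 2 were lower (4.0%, against 4.65% of all genes tested). The other 43 did not pass, and the median fold change was 0.00. Epas1, which encodes another oxygen-regulated partner of Arnt, had 1.41 and 1.69 FPKM in the CTRL libraries, against 5.50 and 6.64 FPKM in the KO libraries (fold change 1.47, SE 0.13, adjusted p = 0.0299). Galm, the mutarotase of galactose and glucose, reached 30.8 and 31.2 FPKM in KO compared with 21.07 and 21.08 FPKM in CTRL (fold change 0.53, adjusted p = 0.0306). Tktl1, a transketolase-like gene, measured 2.00 and 2.44 FPKM in CTRL versus 4.31 and 6.28 FPKM in KO (fold change 0.95, adjusted p = 0.0430).

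The other higher genes of that list were Gyg, which primes glycogen, and Pgm2, which converts pentose phosphates. Gyg had a fold change of 0.40 (adjusted p = 0.0351) and Pgm2 of 0.42 (adjusted p = 0.0397). The 2 lower genes were Adpgk, the ADP-dependent glucokinase (fold change -0.40, adjusted p = 0.0393), and Prps2, which makes phosphoribosyl pyrophosphate from ribose 5-phosphate (fold change -0.30, adjusted p = 0.0487). In each of these genes both KO libraries were on one side of both CTRL libraries. The TCA cycle, which oxidises the carbon of pyruvate in mitochondria, contributed 17 genes, of which 16 were tested. None was called (0 higher and 0 lower by limma, against 5.10% and 4.65% of all genes tested). Before adjustment, 1 was higher and 4 were lower at p under 0.05, against 16.3% and 18.4% of all genes tested. The TCA cycle genes had a median fold change of 0.03. Their summed level was 956.8, 958.0, 956.9 and 991.0 FPKM in CTRL 1, CTRL 2, KO 1 and KO 2.

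Markers of other cells were present at differing levels. The summed level of 7 myeloid markers was 207.1 and 126.1 FPKM in CTRL and 270.9 and 101.6 FPKM in KO, and that of 7 erythroid markers was 39.5 and 21.1 FPKM in CTRL and 50.3 and 24.5 FPKM in KO. The 5 B cell markers summed to 22.0 and 18.5 FPKM in CTRL and to 32.4 and 18.7 FPKM in KO. The 2 CD8 T cell markers summed to 8.49 and 11.4 FPKM in CTRL and to 10.6 and 11.3 FPKM in KO, and 3 NK cell markers to 5.06 and 3.23 FPKM in CTRL and to 3.55 and 4.18 FPKM in KO. Of 35 cell type markers, 27 were tested, with 0 higher and 1 lower (3.7%, against 4.65% of all genes tested). The lower marker was Gata1 (fold change -0.42, adjusted p = 0.0417). The myeloid, erythroid and B cell sums were higher in library 1 than in library 2 of each genotype. The CD8 T cell sum was lower in library 1 of each, and the NK cell sum was higher in CTRL 1 and lower in KO 1. The part of such cells in the members' values was not tested.

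**Figure D4:**
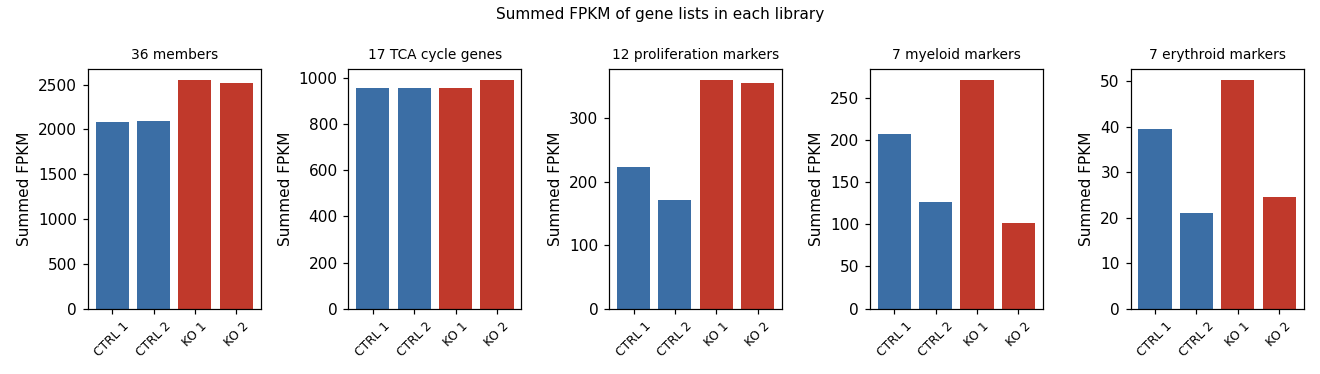
Summed FPKM (y axis) of the 36 members, 17 TCA cycle genes, 12 proliferation markers, 7 myeloid markers and 7 erythroid markers in each of the 4 libraries (x axis, blue for CTRL and red for KO). The members and the proliferation markers are higher in both KO libraries, the TCA cycle genes range from 956.8 to 991.0 FPKM, and the myeloid and erythroid markers are highest in CTRL 1 and KO 1.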

How the data were processed

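RNA-seq was measured in 4 libraries of splenic Treg cells, 2 CTRL and 2 KO, each pooled from 2 mice; RNA was enriched with oligo(dT) and read as pairs. The authors mapped reads to mm10 (GRCm38) with HISAT2 2.2.1, counted them per gene with featureCounts 2.0.1 and ran edgeR 3.34.0. The deposited values are FPKM made by the authors for 24087 genes. The gene length, annotation version, use of strand and handling of multi-mapped reads are not given in the sources used here. Columns named WT were read as the CTRL libraries with the same numbers.

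FPKM was tested as log2(FPKM + 1) with limma 3.58.1 in R 4.3.3 (lmFit, eBayes with a variance trend, group as the only term), two-sided, over the 11399 genes that reached an FPKM of 1 in 2 or more libraries, with Benjamini-Hochberg adjustment over all of them and a threshold of 0.05. This scale understates changes of low genes. Since the deposited unit is FPKM, the log2 test was the main one, and the reads recovered below entered only an alternative. The low FPKM values of 19886 of 19888 genes came out as whole reads (within 0.0002 reads or, relative to the value, 3e-09), which gave relative depths of 1 to 1.08 and the least reads behind each value. P-values rest on the spread between 2 pools per genotype.

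The members, gene lists and tests were chosen with earlier results of these data known. All 36 members are named, with Setd2 and, of the other pathway, TCA cycle and hypoxia lists, genes past the threshold. Bnip3l, Ndrg1, Ero1a, P4ha1, Vegfa, P4ha2, Ak4, Car9 and the marker genes in the text were named after their values were seen. Windows were printed for called members among the 6 smallest adjusted p, from RefSeq (GRCm38.p6). Annotation and shared stretches came from GENCODE vM21. Alternatives were 2 other filters, another pseudocount, 3 scalings, 2 variance models, the replicate block, limma-voom on recovered reads, removal of the trend with exon length, and leaving out each library. The procedure was tested on simulated data. Figures were drawn with Python 3.11.15 and matplotlib 3.10.9.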

Additional observations from a re-analysis of the deposited data

How the results depend on the processing

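The members' median fold change was above 0 under all 15 alternatives. With all 19888 genes above 0 tested, 0 genes were higher and 0 lower, as were 0 members and 0 other pathway genes in each direction by limma, although 21 members had an unadjusted p under 0.05. With genes kept at a group mean over 5 FPKM, 11 members were higher and the median was 0.24, while calls over all genes also rose, to 7.56% higher and 7.19% lower. Without the variance trend, 315 genes, 1 member and 3 other pathway genes were higher. Robust eBayes gave 13 higher and 2 lower members, and 6.53% higher and 6.61% lower of all genes. Median-ratio scaling gave a median of 0.27 and 1 lower other pathway gene, scaling to the same sum a median of 0.24, and quantile normalization a median of 0.16, with 4 of the 8 calls kept. A pseudocount of 0.1 gave a median of 0.26. Limma-voom on recovered reads gave 890 higher and 1013 lower genes, 15 higher and 2 lower members, 6 lower other pathway genes and a median of 0.26. Removing the exon length trend gave 321 lower genes, 0 lower other pathway genes and a median of 0.27. With the replicate block, 968 genes were higher and 805 lower, and 12 members were higher and 2 lower, with Hk1, Pfkm, Pgam1, Pkm, Slc16a3 and Slc2a1 added. The replicate numbers are shared only as numbers. Deviations of same-numbered libraries correlated at 0.342 over genes, and the second principal component (28.3% of variance) separated replicate 1 from 2 in both genotypes. Each time 1 library was left out, 0 to 1 genes were higher, 0 to 1 lower, and 0 members and 0 other pathway genes were called in either direction; the median ranged from 0.21 to 0.24.

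Signs changed only for members that did not pass. Slc2a3 fell to -0.0028 under scaling to the same sum and -0.0037 under quantile normalization, and Slc16a1 reached 0.0043 under the latter. Leaving out 1 library gave ranges of -0.0295 to 0.0515 for Slc2a3, -0.0054 to 0.0831 for Bpgm, -0.0757 to 0.2676 for Gapdh, -0.2902 to 0.0529 for Pdk1, -0.0348 to 0.1043 for Mpc2, -0.1813 to 0.0024 for Pfkfb4 and -0.1309 to 0.0196 for Slc16a1. The other 29 members kept their sign. The cause of these changes was not tested. With 2 libraries per genotype the SE had a median of 0.087, which limits calls of small changes.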
